A study of Mus musculus with 12 samples.

Results

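R1 embryonic stem (ES) cells were compared with fibroblasts, the ES line of the series against the cells that its reprogramming started from. All samples so labelled were used, 6 of the 12 arrays. The ES cells are the established mouse R1 line, labelled with strain 129, at passage 20. They grew on mouse embryonic fibroblast feeders stopped by mitomycin C, with 15% serum and 1000 U/ml of leukaemia inhibitory factor (LIF), and the suspension was plated for 0.5 h so that feeders would settle before RNA was taken. The fibroblasts were at passage 3 and were pelleted into Trizol. The strain label of each begins with OG2-GFP/Rosa26 and ends with M2rtTA for the first, M3rtTA for the second and M4rtTA for the third, and no label says whether these are separate alleles. Each group has 3 arrays, and no label states separate cultures; a p-value therefore reflects the spread among these arrays alone, which may be technical. Strain, line, passage and medium differed together between the groups and cannot be told apart from cell type. The other 6 arrays are iPS cells made with Oct4 and Tet1 (passage 10) and day-1 Oct4 Tet1 cells (passage 3). The day-1 cells are titled an intermediate stage and had 1 day of doxycycline. Both groups carry the strain label OG2-GFP/Rosa26-M2rtTA, so strain differs between the ES and iPS cells too. These arrays entered the fit for the spread, and the iPS cells are set beside the ES cells near the end.

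ES cells are derived from the inner cell mass of the blastocyst and can give rise to all tissues of the embryo. Their state is held by a network of transcription factors around Oct4 (encoded by Pou5f1), Sox2 and Nanog, and in serum by LIF, which acts through its receptor, the shared subunit gp130 and Stat3. Fibroblasts are mesenchymal cells that make collagenous matrix, pull on it through actin stress fibres, and answer infection and tissue damage with interferon-induced proteins and chemokines.

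Levels are the log2 values that the authors deposited, 1 probe set a gene. A difference is the ES mean minus the fibroblast mean on that scale, so 1 unit is 2-fold, and it is given with its standard error (SE). A gene was called where limma's Benjamini-Hochberg adjusted p over 9539 genes was under 0.05 and the difference was at least 1 in size. By that rule 5299 genes, or 55.6%, were called: 2234 (23.4%) were higher and 3065 (32.1%) lower in ES cells. The largest adjusted p among them was 0.0156, and the groups did not overlap at any of the 5299 genes, so neither is repeated gene by gene. The groups did not overlap at 94.0% of all genes tested. Each list count below is to be read beside the shares of all genes, 23.4% higher and 32.1% lower. The median difference was -0.35, which is not removed from the values below. With arrays centred on a common median it is 0 and every difference lies 0.35 higher. Genes called lower by little more than 1 are then not called, and genes higher by little less than 1 are called. Centring gave 3223 genes higher and 2265 lower, and after quantile normalization 2798 were higher and 2486 lower. The share of calls that were higher was thus 42.2%, against 58.7% and 53% in these alternatives.

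Large differences ran both ways. Of the called genes, 739 were at least 4-fold higher in ES cells and 1261 at least 4-fold lower; at 64-fold the counts were 14 higher and 4 lower. ES arrays correlated with each other across genes at r = 0.988 to 0.993, fibroblast arrays at 0.991 to 0.994, and ES arrays with fibroblast arrays at 0.525 to 0.572. The array medians were 7.89 to 7.98 in ES cells and 8.25 to 8.29 in fibroblasts.

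**Figure D1:**
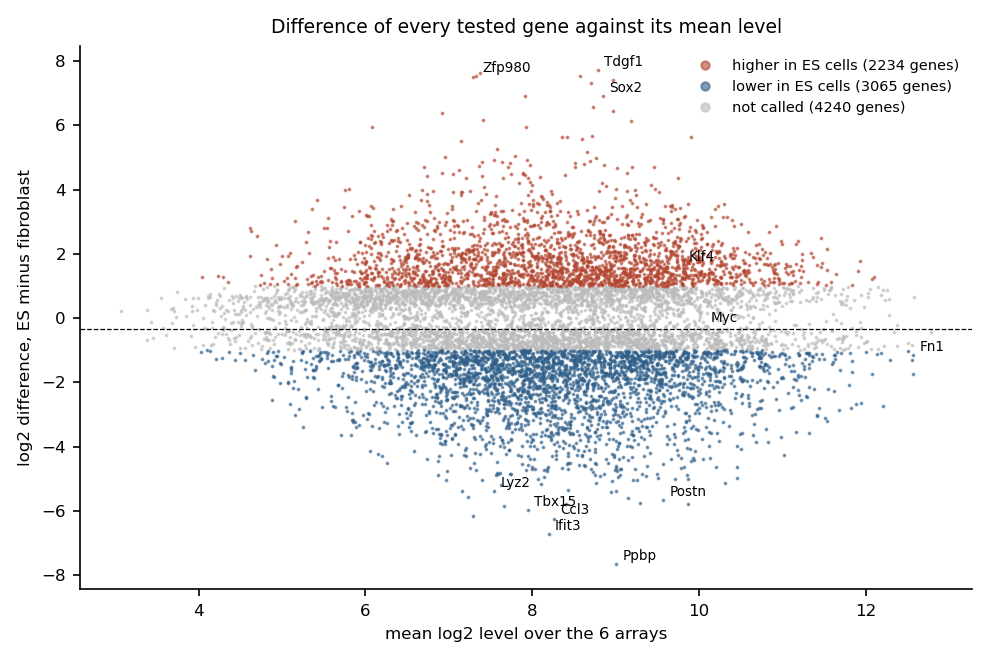
Log2 difference, ES minus fibroblast, of every tested gene (vertical axis) against its mean log2 level over the 6 arrays (horizontal axis). Red points are the 2234 genes called higher in ES cells, blue the 3065 called lower and grey the genes not called; the dashed line is the median difference of -0.35, and the differences span -7.66 to 7.71.

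The labels were checked against markers. All 8 ES markers examined were called higher in ES cells, and their summed linear level was 37325 to 38917 on ES arrays, against 310 to 389 on fibroblast arrays. All 10 fibroblast markers were measured, and 9 were lower in ES cells; Fap, a membrane protease, was low in both groups and not called (-0.72 ± 0.11). The list of 26 measured fibroblast identity genes had summed levels of 8476 to 10702 on ES arrays and 61676 to 66761 on fibroblast arrays. Within the ES group the second array was the highest, at 10702, against 8476 for the first and 8618 for the third, and it was the highest of the 3 for 14 of the 26 genes. The feeders are fibroblasts themselves, and the part of feeders left in the suspension was not tested. In bulk RNA, fewer cells of a type and less RNA per cell cannot be told apart. Of 28 macrophage and leukocyte genes 16 were measured, and their summed levels were 1964 to 2251 on ES arrays and 2821 to 3499 on fibroblast arrays. Ptprc, the pan-leukocyte marker Cd45, and Itgam were among the 12 not analysed here.

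**Figure D2:**
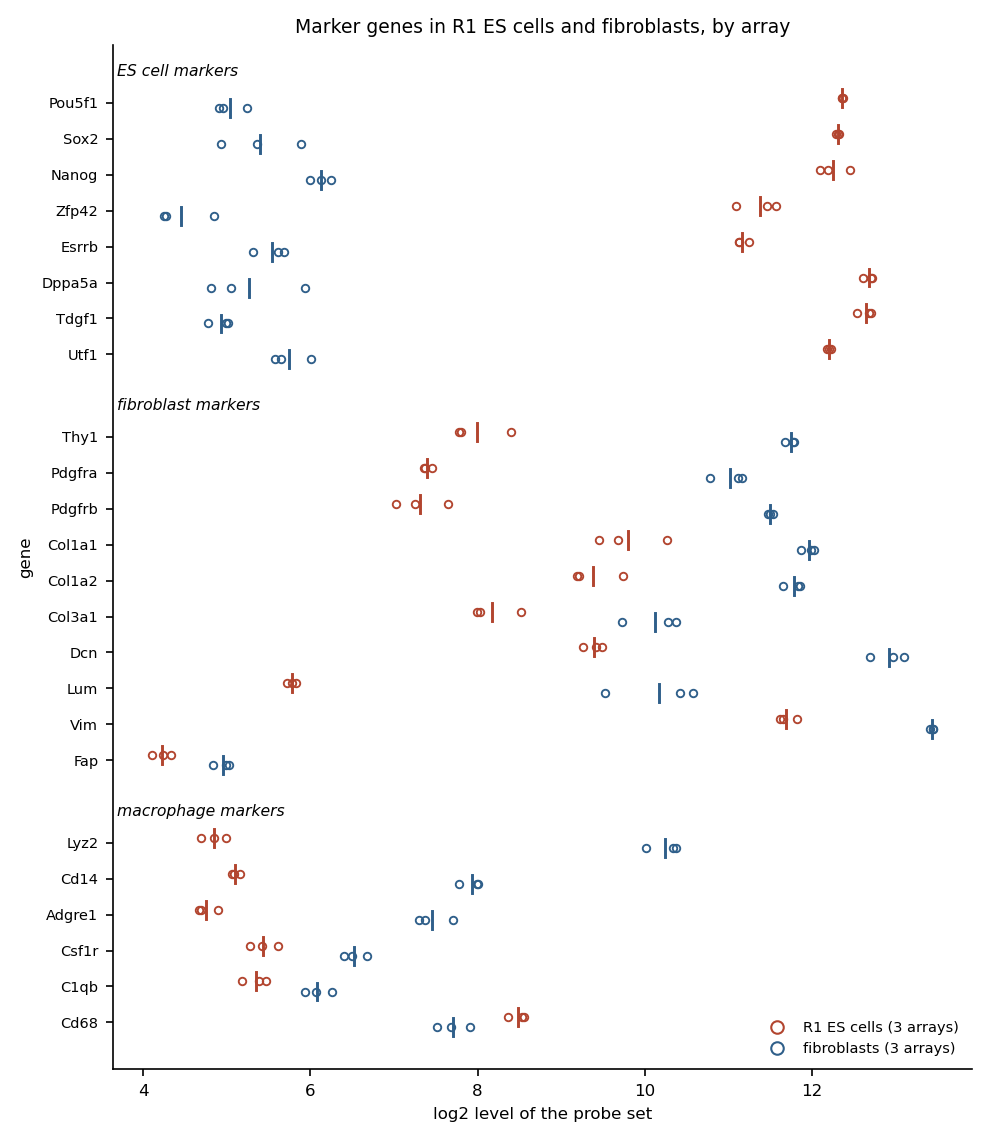
Log2 levels (horizontal axis) of marker genes in the 3 ES arrays (red circles) and 3 fibroblast arrays (blue circles), with the group mean as a bar. The 8 ES markers lie far above their fibroblast levels, 9 of 10 fibroblast markers lie at least 1.74 below, and of the macrophage markers Lyz2 shows the widest gap.

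The pluripotency factors were measured almost in full. Of 31 transcription factors listed, 30 were in the table, and 25 were higher, none lower and 5 not called, with a median difference of 3.74 against -0.35 over all genes. Sox2 had levels of 12.31, 12.29 and 12.33 in ES cells, against 4.94, 5.89 and 5.36 in fibroblasts. That is a difference of 6.91 ± 0.17 (121-fold; limma adjusted p = 5.2e-13). Nanog, a homeodomain factor of the same network, had 12.20, 12.46 and 12.09 in ES cells, against 6.13, 5.99 and 6.25 in fibroblasts, or 6.13 ± 0.10. The arrays of the 2 groups lay more than 5 units apart for both genes. Esrrb, an orphan nuclear receptor that can stand in for Nanog in reprogramming, had 11.13, 11.25 and 11.12 in ES cells, against 5.61, 5.68 and 5.32 in fibroblasts (5.63 ± 0.09). Mycn differed by 5.17 ± 0.11, Sall4 by 4.87 ± 0.14, Tfcp2l1 by 4.76 ± 0.13, Nr5a2 by 4.52 ± 0.16 and Prdm14 by 2.09 ± 0.14. The naive-state factors Klf2 (2.50 ± 0.09), Klf5 (3.56 ± 0.12) and Klf4 (1.65 ± 0.10) were also higher.

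The 5 uncalled factors differed by less than 1 unit. Of the 30 factors, 28 were called higher with centred arrays and 27 with quantile normalization. Myc, the proto-oncogene used in reprogramming cocktails, had 9.78, 10.24 and 9.81 in ES cells, against 10.44, 10.12 and 10.01 in fibroblasts, and its difference of -0.24 ± 0.13 turns positive with centred arrays. Zfp281 had 10.46 ± 0.09 in ES cells and 10.47 ± 0.14 in fibroblasts (SD, n = 3 each), Tbx3 differed by 0.92 ± 0.12, Rarg by 0.78 ± 0.07 and Sp5 by 0.95 ± 0.12. Klf4, also a factor of the reprogramming cocktail, had 10.64, 10.64 and 10.62 in ES cells, against 9.06, 9.07 and 8.81 in fibroblasts. Its fibroblast levels were far above those of Pou5f1, which had 12.36, 12.37 and 12.36 in ES cells, against 4.96, 5.24 and 4.91 in fibroblasts. Tet1, whose product oxidises methylated cytosine, differed by 4.68 ± 0.09.

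Promoter sequence is shown for Nanog because a joined site for Oct4 and Sox2 just before its start is the classic composite element of this network. RefSeq windows of 300 bases, from 250 before to 50 after a start, were searched on both strands for CATTGT and ATGCAAA with 1 base between them. Of 7533 tested genes with such a window, 1 held it, Nanog. That element was known before the search, so its match at Nanog is no test of a link. The window shown is chr6:122707239-122707538 (GRCm38.p6, + strand), the match is in capitals on the opposite strand, and it begins 75 bases before the start. In the window of another RefSeq start of Nanog, chr6:122707315-122707614, the same match begins 151 bases before the start.
Nanog: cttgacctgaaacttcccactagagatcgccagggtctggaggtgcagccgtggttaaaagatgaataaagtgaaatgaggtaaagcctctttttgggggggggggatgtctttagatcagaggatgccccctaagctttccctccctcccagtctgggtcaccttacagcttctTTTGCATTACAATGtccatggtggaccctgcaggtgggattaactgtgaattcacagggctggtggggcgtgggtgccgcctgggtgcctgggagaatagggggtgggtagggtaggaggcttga
The shorter octamer ATGCAAAT was in the windows of 1.65% of those genes and of 1.64% of the genes called higher. A match is a description of letters, and no site was measured here.

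Of 39 measured effector and marker genes of pluripotency, 35 were higher, none lower and 4 not called, with a median of 3.30. Dppa4 (6.40 ± 0.13) and Dppa2 (5.64 ± 0.10), chromatin proteins encoded side by side, L1td1 (5.58 ± 0.10), which binds RNA, and Fbxo15 (6.15 ± 0.12), a common reporter locus for reprogramming, were among the widest. Slc2a3, the high-affinity glucose transporter Glut3, had 12.73, 12.82 and 12.61 in ES cells, against 6.93, 7.07 and 7.26 in fibroblasts. Its groups stood over 5 units apart, a 49.5-fold difference. Icam1 (0.86 ± 0.11), Manba (0.67 ± 0.09), Fut4 (-0.42 ± 0.14) and Pramel7 (0.21 ± 0.13) were not called. Bex1 (7.63 ± 0.09) and Trh (6.57 ± 0.12), which encodes the precursor of thyrotropin-releasing hormone, were among the 15 genes with the highest differences of all.

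Of 14 genes of the LIF and Stat3 pathway, 3 were higher and 7 lower, against 23.4% and 32.1% of all genes. Lifr, the LIF receptor chain that pairs with gp130, had 10.32, 9.98 and 10.06 in ES cells, against 7.69, 8.24 and 8.27 in fibroblasts. It was higher by 2.05 ± 0.14, while gp130 itself, Il6st, was lower (-1.85 ± 0.07) and the oncostatin receptor Osmr, which shares gp130, was far lower. Osmr had 6.45, 7.19 and 6.03 in ES cells, against 11.42, 11.53 and 11.57 in fibroblasts. The cytokine Il6 (-5.16 ± 0.18), the kinases Jak2 (-3.34 ± 0.18) and Jak1 (-1.83 ± 0.11) were lower, and Stat3 was not called (-0.95 ± 0.07). Socs2 (2.67 ± 0.08), a feedback inhibitor, and the kinase Pim3 (1.74 ± 0.07) were the other higher members.

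Of the fibroblast growth factors, Fgf4, the factor that ES cells make themselves and that drives their exit from pluripotency through Erk, had 9.89, 9.65 and 10.07 in ES cells, against 6.42, 6.67 and 6.54 in fibroblasts. Fgf7, a mesenchymal factor that acts on epithelia, had 7.58, 8.06 and 6.84 in ES cells, against 12.13, 12.12 and 12.16 in fibroblasts. Fgf4 was thus higher and Fgf7 lower in ES cells. Fgf15 (3.06 ± 0.16) and Fgf17 (2.00 ± 0.10) were higher as well, and Fgf2 (-3.18 ± 0.21), Fgf10 (-1.72 ± 0.13) and the receptor Fgfr1 (-1.97 ± 0.08) lower. Of the feedback genes that Erk induces, Spry2 was higher at 2.84 ± 0.09, Spry4 at 2.48 ± 0.11 and Etv4 at 2.03 ± 0.09, and the Erk inhibitor Spred3 was lower (-1.96 ± 0.09). In all, 7 of 18 members were higher, 6 lower and 5 not called. The share lower was near the 32.1% of all genes, and 23.4% of all genes were higher.

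Of 25 members of the TGF-beta superfamily pathway 6 were higher and 17 lower. Gdf3 (4.83 ± 0.10), Nodal (2.77 ± 0.11) and the Nodal antagonists Lefty2 (3.18 ± 0.23) and Lefty1 (1.59 ± 0.28) were higher, with the receptor Acvr2b (1.82 ± 0.11) and the latency protein Ltbp4 (1.50 ± 0.07). Nodal had 8.89, 9.04 and 8.74 in ES cells, against 6.22, 6.25 and 5.87 in fibroblasts. Tgfb3 (-4.55 ± 0.20), the receptors Tgfbr3 (-3.97 ± 0.07) and Tgfbr2 (-3.53 ± 0.10), and the activin subunit Inhba (-3.58 ± 0.32) were lower. Tgfbr2, without which TGF-beta ligands do not signal, had 6.87, 6.96 and 7.11 in ES cells, against 10.34, 10.62 and 10.59 in fibroblasts. Of 18 BMP pathway genes none was called higher, 8 were lower and 10 not called. The BMP antagonist Grem1 was the widest (-4.40 ± 0.11), and the BMP targets Id2 (-1.79 ± 0.09) and Id3 (-1.38 ± 0.10) were lower while Id1 was not called (-0.10 ± 0.13).

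Of 32 Wnt genes 5 were higher, 14 lower and 13 not called, where 23.4% of all genes were higher and 32.1% lower. The 5 became 8 with centred arrays or quantile normalization. Lef1 (3.04 ± 0.13), a nuclear effector, Notum (2.45 ± 0.08), a secreted Wnt deacylase, Fzd5 (2.27 ± 0.11) and Axin2 (1.04 ± 0.12), a target of beta-catenin, were higher, Axin2 not without the second ES or the third fibroblast array. Wnt5a, a ligand that acts mainly without beta-catenin, had 6.89, 7.05 and 6.57 in ES cells, against 10.35, 10.45 and 10.51 in fibroblasts (-3.60 ± 0.12). The receptors Fzd2 (-2.83 ± 0.09) and Fzd1 (-2.53 ± 0.12) and the secreted antagonists Sfrp1 (-3.45 ± 0.13) and Dkk3 (-2.41 ± 0.13) were lower. Of 17 Hippo genes 12 were lower, among them the kinase Lats2 (-3.09 ± 0.10) and the YAP targets Ccn1 (-2.24 ± 0.09) and Ccn2 (-1.95 ± 0.13); Ajuba (2.09 ± 0.09) and Wwc1 (1.91 ± 0.07) were higher. Of 12 Notch genes 3 were higher and 8 not called, and Notch2 was lower (-1.57 ± 0.09); 8 were higher with centred arrays.

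Receptor tyrosine kinases and their ligands were lower in 29 of 43 cases and higher in 5. Kit, the receptor for stem cell factor, had 10.17, 10.25 and 9.97 in ES cells, against 5.65, 5.80 and 5.51 in fibroblasts. It was 22.3-fold higher in ES cells, and its ligand Kitl was lower (-2.57 ± 0.12). Epha2 (2.80 ± 0.16), Erbb3 (2.11 ± 0.13), Tyro3 (1.38 ± 0.08) and the binding protein Igfbp2 (3.68 ± 0.07) were the others. Axl (-4.59 ± 0.16), Pdgfrb (-4.20 ± 0.12), the collagen receptor Ddr2 (-3.98 ± 0.10) and the growth factors Vegfd (-3.97 ± 0.10) and Pdgfd (-3.93 ± 0.20) were the lowest with Igfbp7 (-4.26 ± 0.15).

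Cadherins came next. E-cadherin, Cdh1, which joins epithelial cells, had 10.92, 10.70 and 11.12 in ES cells, against 6.31, 6.11 and 5.88 in fibroblasts. N-cadherin, Cdh2, which mesenchymal cells carry, had 7.04, 7.65 and 7.13 in ES cells, against 11.28, 10.92 and 10.91 in fibroblasts, and Cdh11 differed by -3.99 ± 0.16. The arrays of the groups were over 3 units apart for Cdh1 and Cdh2, in opposite directions. Of 42 genes of epithelial adhesion 21 were higher, 9 lower and 12 not called, led by Epcam (5.26 ± 0.21), the protease inhibitors Spint2 (4.12 ± 0.10) and Spint1 (3.20 ± 0.13), the splicing regulator Esrp1 (3.98 ± 0.11) and desmoglein Dsg2 (2.91 ± 0.15). The 9 lower members were, besides Cdh2 and Cdh11, the cadherins Cdh10 (-3.53 ± 0.18) and Cdh13 (-2.29 ± 0.11), the protocadherins Pcdh18 (-4.37 ± 0.08), Pcdh7 (-3.74 ± 0.21) and Pcdh19 (-3.48 ± 0.17), the connexin Gja1 (-1.17 ± 0.07) and Cldn1 (-1.31 ± 0.17). Tjp1, which encodes the junction protein ZO-1, was not called (0.13 ± 0.10).

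Laminins are the trimers that basement membranes are built on, each with an alpha, a beta and a gamma chain. The alpha chains Lama5 and Lama1 were higher and Lama4 and Lama2 lower in ES cells. Lama5 had 9.40, 9.37 and 9.53 in ES cells, against 6.70, 6.56 and 6.44 in fibroblasts. Lama4 had 6.26, 6.70 and 6.05 in ES cells, against 10.18, 10.51 and 10.48 in fibroblasts. Lama1 differed by 2.72 ± 0.12 and Lama2 by -1.82 ± 0.08; the shared chains Lamc1 (0.87 ± 0.07) and Lamb1 (-0.71 ± 0.07) were not called. The nidogens, which link laminin to collagen, also divided, with Nid2 higher (2.41 ± 0.10) and Nid1 lower (-1.90 ± 0.09). Among integrins, Itga6, a laminin receptor chain, was higher (2.93 ± 0.10), as were Itga3 (1.72 ± 0.16) and Itgb7 (2.00 ± 0.12). Itga11 (-3.26 ± 0.10), a collagen receptor chain, Itgb5 (-2.87 ± 0.06), Itgav (-2.78 ± 0.07) and Itga5 (-2.07 ± 0.13) were lower. In all 3 of 16 integrins were higher and 8 lower, against 23.4% and 32.1% of all genes. The common chain Itgb1 was not called (-0.83 ± 0.07).

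**Figure D3:**
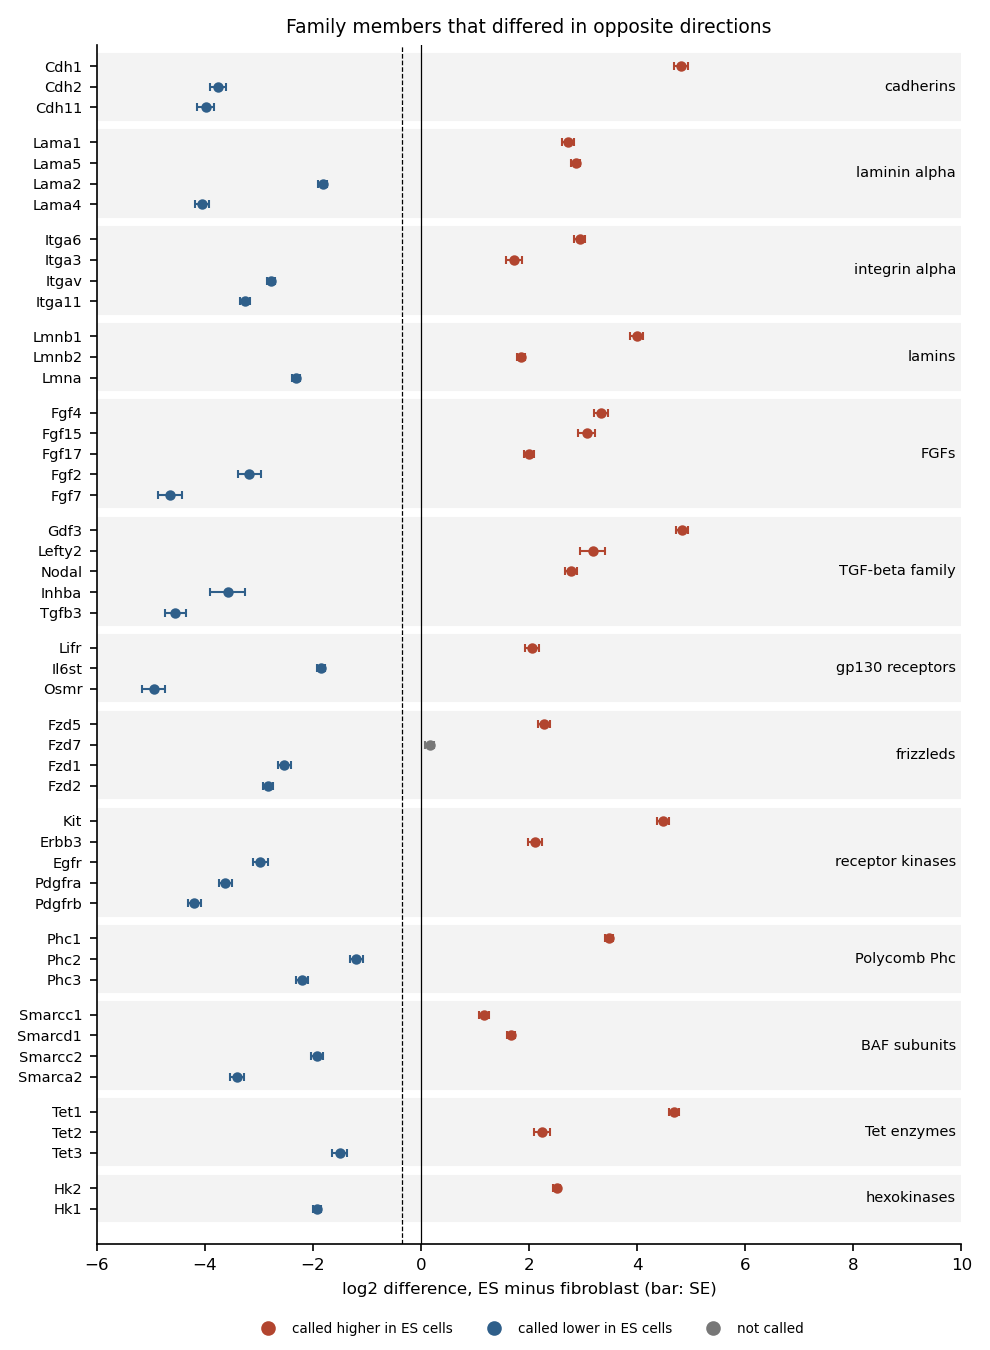
Log2 difference, ES minus fibroblast, with its SE as a bar, for members of 13 families (horizontal axis). Red points were called higher in ES cells, blue lower and grey not called. Families and members were picked to show both sides of 0, as with Cdh1 at 4.81 and Cdh2 at -3.77. Other measured members are left out, so the split is no result about families. The dashed line is the median of all genes.

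Of 30 measured genes for fibrous and proteoglycan matrix 27 were lower, none higher and 3 not called, with a median of -3.29. Aspn (-5.37 ± 0.26), Ccdc80 (-5.42 ± 0.18), Efemp1 (-4.93 ± 0.21) and Fbln5 (-4.89 ± 0.11), an elastic-fibre protein, were among the lowest. Fibronectin, Fn1, had 11.95, 12.05 and 11.98 in ES cells, against 13.15, 13.12 and 13.13 in fibroblasts, a difference of -1.14 ± 0.06. It stayed high on the ES arrays, and it was not called with centred arrays or quantile normalization. Of 22 collagens 11 were lower, 10 not called and 1 higher, or 2 higher with centred arrays or quantile normalization. Col12a1, which lies along collagen fibrils, had 7.09, 7.73 and 7.44 in ES cells, against 12.19, 12.32 and 12.37 in fibroblasts. Col5a2 (-3.37 ± 0.12) and Col8a1 (-3.32 ± 0.21) followed, and Col18a1, the basement membrane collagen that endostatin is cut from, was higher (1.73 ± 0.12). The type IV chains of basement membranes, Col4a1 (-0.55 ± 0.08) and Col4a2 (-0.78 ± 0.10), were not called.

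The enzymes that finish collagen were lower in 17 of 20 cases and higher in none. All 3 prolyl 4-hydroxylase alpha subunits, which stabilise the triple helix, were lower, P4ha3 at -4.63 ± 0.09, P4ha2 at -2.96 ± 0.09 and P4ha1 at -2.60 ± 0.12. P4ha3 had 5.60, 5.73 and 5.72 in ES cells, against 10.41, 10.13 and 10.41 in fibroblasts. The collagen chaperone Serpinh1 (-3.79 ± 0.13) and the cross-linking oxidases Loxl1 (-3.90 ± 0.08) and Loxl3 (-4.02 ± 0.12) were lower, while Plod2 (-0.43 ± 0.09) and Pcolce2 (0.13 ± 0.16) were not called. Matrix proteases and their inhibitors were lower in 26 of 31 cases. Adamts5, an aggrecanase, had the widest difference (-4.85 ± 0.09), followed by the cathepsin Ctsk (-4.72 ± 0.14) and the collagenase Mmp13 (-3.98 ± 0.15). Of 33 genes for heparan sulfate and other glycosaminoglycans 23 were lower and none higher, among them Cd44 (-3.54 ± 0.17), Sdc3 (-3.42 ± 0.20) and Gpc6 (-3.41 ± 0.09); Gpc4 (-0.68 ± 0.08) and Gpc3 (0.68 ± 0.20) were not called. With centred arrays 1 member of each of the matrix, protease and glycosaminoglycan lists was higher.

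Contractile genes were lower in 22 of 32 cases. Smooth muscle actin, Acta2, had 9.10, 10.22 and 9.26 in ES cells, against 13.13, 13.08 and 13.11 in fibroblasts, and calponin, Cnn1, differed by -4.38 ± 0.17. Desmin, Des (1.93 ± 0.09), and Csrp2 (1.41 ± 0.08) were the 2 higher members, and Srf, the factor that many of these genes answer to, was not called (0.08 ± 0.09), nor were Actn4 (-0.34 ± 0.07) and Vcl (-0.74 ± 0.10). Srf binds the CArG box, and its matches were counted in the same promoter windows. The windows of 6 of 27 contractile genes held one (22.2%), against 1.67% of the 7533 genes. They were Acta1, Actc1, Cnn2, Myl9, Vcl and Srf, so Vcl and Srf, which were not called, are included. Acta2 and Cnn1 were not among them. Myl9, a myosin light chain with 7.29, 7.81 and 7.32 in ES cells, against 11.99, 11.76 and 11.83 in fibroblasts, is shown because it had the widest difference of the list. Its window is chr2:156775214-156775513 (GRCm38.p6, + strand), with the match in capitals.
Myl9: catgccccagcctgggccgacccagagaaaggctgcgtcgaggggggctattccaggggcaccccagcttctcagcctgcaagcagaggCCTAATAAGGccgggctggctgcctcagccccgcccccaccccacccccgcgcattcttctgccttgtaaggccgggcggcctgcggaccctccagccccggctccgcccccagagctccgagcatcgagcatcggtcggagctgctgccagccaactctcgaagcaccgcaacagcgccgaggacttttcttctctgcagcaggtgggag

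Vimentin was lower by a modest amount and stayed at a high level, with 11.62, 11.82 and 11.65 in ES cells, against 13.45, 13.41 and 13.45 in fibroblasts. The nuclear lamina changed its make-up. Lmnb1, a B-type lamin, had 11.19, 11.17 and 11.30 in ES cells, against 7.48, 6.92 and 7.29 in fibroblasts. Lmna, the gene of lamins A and C, which stiffen the nucleus, had 7.91, 8.09 and 8.04 in ES cells, against 10.37, 10.30 and 10.31 in fibroblasts. Lmnb2 (1.86 ± 0.07), the lamin B receptor Lbr (3.10 ± 0.07) and Tmpo (1.50 ± 0.13) were higher, and Emd (-1.08 ± 0.08) and Syne1 (-1.99 ± 0.07) lower. The neuronal filaments Ina (3.94 ± 0.11) and Nefl (2.40 ± 0.14), Nes (1.61 ± 0.14), and the simple-epithelial keratins Krt8 (1.43 ± 0.15) and Krt18 (1.16 ± 0.14) were higher, Krt18 not without the third fibroblast array. Of 29 genes for caveolae, annexins, S100 proteins and galectins 27 were lower and none higher, with a median of -2.77. Cav1, the scaffold of caveolae, had 6.46, 7.08 and 6.56 in ES cells, against 11.54, 11.32 and 11.32 in fibroblasts. S100a4, also called fibroblast-specific protein, differed by -5.39 ± 0.16, Anxa3 by -4.33 ± 0.18, Ehd2 by -4.29 ± 0.11 and Cavin2 by -4.27 ± 0.18.

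Of 55 mesenchymal transcription factors 40 were lower, 4 higher and 11 not called, with a median of -1.90. Tbx15, a T-box factor of limb and trunk mesenchyme, had 4.62, 5.58 and 4.70 in ES cells, against 10.73, 10.93 and 11.13 in fibroblasts. It differed by -5.96 ± 0.20, or 62.4-fold lower in ES cells. Twist2 (-5.01 ± 0.10), Nfix (-4.84 ± 0.08), Osr1 (-4.30 ± 0.09), Snai2 (-4.09 ± 0.08) and Prrx1 (-3.98 ± 0.12), all factors of mesenchyme or of its formation, were the next. The 4 higher members were Gli1 (2.04 ± 0.10), a target and effector of Hedgehog signalling, the AP-1 genes Fosb (1.67 ± 0.17) and Fos (1.41 ± 0.19), and Snai3 (1.01 ± 0.12), which was not called without the second ES or the third fibroblast array. Other AP-1 genes were lower, Fosl1 at -3.46 ± 0.13 and Jun at -2.82 ± 0.12. Without the dimmest 25% of genes 43 members were tested and 2 were higher.

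Hox genes record position along the body axis, and cultured fibroblasts keep the code of their origin. Of 28 measured Hox genes 18 were lower, none higher and 10 not called, with a median of -1.38. Hoxc6 had 5.70, 5.52 and 5.05 in ES cells, against 9.08, 9.19 and 9.32 in fibroblasts, and Hoxc8 differed by -2.99 ± 0.10. The cofactors Meis2 (-2.91 ± 0.17) and Meis1 (-1.88 ± 0.12) were lower and Pknox1 higher (1.04 ± 0.07). The median ES level over the list of Hox genes and cofactors was 6.05, below every array's median. Of the 34 on that list 22 were lower and Pknox1 alone higher, which was not called without the second ES array, and without the dimmest 25% of genes 14 of 18 were lower.

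Interferon-induced genes were far lower in ES cells. Of 48 measured genes of the interferon response and antigen presentation 41 were lower, 1 higher and 6 not called, with a median of -2.83. Without the dimmest 25% of genes 24 of 28 were lower. Ifit3, which restricts viral RNA, had 4.97, 4.97 and 4.57 in ES cells, against 11.29, 11.69 and 11.68 in fibroblasts. It was 105-fold lower (limma adjusted p = 3.4e-13). The protease Usp18, a brake on interferon receptor signalling, differed by -5.59 ± 0.34, and Ifi203 by -5.85 ± 0.23. Sensors and receptors were lower too. The RNA sensors Ifih1 (MDA5; -4.06 ± 0.14) and Ddx58 (RIG-I; -1.62 ± 0.12), the toll-like receptor Tlr3 (-3.40 ± 0.14) and the interferon receptor subunits Ifnar2 (-3.65 ± 0.11), Ifngr1 (-3.58 ± 0.16) and Ifngr2 (-3.36 ± 0.11) were all lower. Ifnar2 had 7.42, 7.81 and 7.55 in ES cells, against 11.08, 11.34 and 11.29 in fibroblasts. B2m, the shared light chain of class I molecules, had 8.68, 9.87 and 8.64 in ES cells, against 12.46, 12.46 and 12.66 in fibroblasts. Ifitm1 was the 1 higher member (1.73 ± 0.26), while Ifitm3 was lower (-2.80 ± 0.13); the factor Irf3, which acts before interferon is made, was not called (-0.68 ± 0.09).

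The core of the interferon-stimulated response element, GAAANNGAA on either strand, was in the windows of 19 of the 38 list members with a promoter and of 8.75% of the 7533 genes. It was in 9.86% of genes called lower and 7.64% of those called higher. Ifit3 is shown as the gene with the widest difference of the list and holds it 3 times. The window is chr19:34583279-34583578 (GRCm38.p6, + strand), and the matches, in capitals on the opposite strand, begin 155, 121 and 102 bases before the start.
Ifit3: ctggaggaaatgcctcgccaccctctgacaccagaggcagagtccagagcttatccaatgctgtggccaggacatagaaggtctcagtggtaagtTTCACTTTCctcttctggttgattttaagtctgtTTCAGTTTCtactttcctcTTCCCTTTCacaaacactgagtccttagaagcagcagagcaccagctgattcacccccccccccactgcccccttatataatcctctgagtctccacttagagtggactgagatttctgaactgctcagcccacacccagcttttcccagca

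Of 45 chemokines, cytokines and acute-phase genes 42 were lower, none higher and 3 not called, with a median of -3.28. Ppbp, the platelet basic protein Cxcl7, had 5.17 ± 0.17 in ES cells and 12.84 ± 0.23 in fibroblasts (SD, n = 3 each), and its groups lay over 7 units apart. This was the lowest difference of all tested genes, -7.66 ± 0.13. Ccl3 (-6.24 ± 0.13), Cxcl5 (-5.76 ± 0.10) and Ccl7 (-5.12 ± 0.10), which draw leukocytes, were also far lower, as was Ly96 (-6.17 ± 0.14), the lipopolysaccharide co-receptor, which is not on the list. Relb (-0.11 ± 0.09), Tnfsf11 (-0.38 ± 0.18) and Il33 (-0.52 ± 0.15) were not called. In the complement and coagulation list 12 of 14 were lower, led by tissue factor, F3 (-4.75 ± 0.14), and the complement inhibitor Cd59a (-4.29 ± 0.09). Leukocyte genes are set beside these. Lyz2, the lysozyme of myeloid cells, had 4.85, 4.99 and 4.69 in ES cells, against 10.01, 10.33 and 10.37 in fibroblasts. Of the other measured leukocyte genes, the oxidase subunit Cybb (-3.23 ± 0.12), Cd14 (-2.83 ± 0.11), Adgre1 (-2.71 ± 0.11), Fcer1g (-2.03 ± 0.18), Msr1 (-1.49 ± 0.16), Csf1r (-1.09 ± 0.09) and Tyrobp (-1.02 ± 0.15) were lower, 8 of 16 with Lyz2. Spi1, C1qb, C1qc, Fcgr3, Ms4a7, Lyz1 and Cd68 were not called, and Laptm5 was higher (2.53 ± 0.12). The mean summed level of the 16 genes in ES cells was 64.7% of that in fibroblasts. The 6 measured macrophage markers among them summed to 509 to 547 on the ES arrays, against 1786 to 2201 on the fibroblast arrays, a mean of 26.5%. The part of leukocytes in the chemokine and interferon differences was not tested. Without the dimmest 25% of genes only 3 of the leukocyte genes were tested, and 1 was lower and 1 higher.

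The cell cycle genes were higher. Of 50 measured S-phase genes 47 were higher and 3 not called, and of 72 mitotic genes 67 were higher and 5 not called, with medians of 2.31 and 2.32. All 6 subunits of the replicative helicase, Mcm2 to Mcm7, were higher. Mcm3 had 11.53, 11.46 and 11.48 in ES cells, against 7.80, 7.20 and 7.37 in fibroblasts. Hells, a remodeller needed for DNA methylation, differed by 4.69 ± 0.13, the replication factor Ticrr by 3.96 ± 0.13, the kinesin Kif20b by 3.88 ± 0.08 and the centromere protein Cenph by 3.69 ± 0.07. Some central mitotic genes were not called, with Cdk1 at 0.40 ± 0.08, Aurkb at 0.65 ± 0.09 and Foxm1 at 0.76 ± 0.10. Cdk1 had 10.16, 10.24 and 10.25 in ES cells, against 9.88, 9.82 and 9.75 in fibroblasts. Its groups lay within 1 unit of each other, while Mcm3 differed 16.4-fold.

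The E2F motif, searched as TTCCCGCC or TTTCCCGC on both strands, was in the windows of 14 of 41 S-phase genes with a promoter (34.2%), 5 of 61 mitotic genes (8.20%) and 5.83% of the 7533 genes. Among all genes called higher it was in 9.05%, and among those called lower in 4.39%. Mcm3 is shown as the motif-bearing helicase gene with the widest difference. Its window is chr1:20820263-20820562 (GRCm38.p6, - strand, printed along that strand), with the 2 overlapping matches in capitals just after the start.
Mcm3: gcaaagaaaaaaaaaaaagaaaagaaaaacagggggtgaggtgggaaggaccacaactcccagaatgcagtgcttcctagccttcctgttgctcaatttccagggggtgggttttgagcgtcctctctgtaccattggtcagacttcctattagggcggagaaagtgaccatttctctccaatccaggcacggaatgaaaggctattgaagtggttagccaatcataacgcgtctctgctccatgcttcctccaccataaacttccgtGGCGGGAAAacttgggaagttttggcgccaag

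Regulators of the cycle went both ways. The replication and mitosis regulators Fbxo5 (3.48 ± 0.14), Wee1 (3.15 ± 0.09) and E2f8 (2.63 ± 0.09), and cyclin E1, Ccne1 (1.89 ± 0.08), were higher. Cyclin D2, Ccnd2, which couples the cycle to growth factors, had 9.18, 10.04 and 9.35 in ES cells, against 12.35, 12.39 and 12.40 in fibroblasts. It was lower, as were the CDK inhibitors Cdkn2b (-2.72 ± 0.09), Cdkn2c (-2.17 ± 0.14), Cdkn2a (-2.12 ± 0.07) and Cdkn1b (-1.29 ± 0.13), while Cdkn1c was higher (1.40 ± 0.13) and Ccnd1 was not called (-0.47 ± 0.12). Of 28 genes in this list 12 were higher and 7 lower, against 23.4% and 32.1% of all genes.

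Among genes of p53 signalling and cell death 13 of 26 were lower and 4 higher. Casp8, the initiator caspase of death receptors, had 6.02, 6.34 and 6.22 in ES cells, against 11.29, 11.27 and 11.42 in fibroblasts. The death receptor Fas (-4.10 ± 0.12) and the inflammatory caspases Casp12 (-5.03 ± 0.12) and Casp4 (-3.87 ± 0.12) were lower with it. Mcl1 (1.68 ± 0.07), which protects cells from death, the p53 inhibitor Mdm4 (1.47 ± 0.07), Pmaip1 (Noxa; 1.74 ± 0.10) and Perp (1.82 ± 0.12) were the 4 higher members. DNA repair genes were higher in 43 of 56 cases and lower in none, or in 1 without the second ES array. Rif1, which guides repair and replication timing, had 11.52, 11.61 and 11.51 in ES cells, against 6.83, 6.73 and 6.99 in fibroblasts. The mismatch repair subunit Msh6 differed by 4.15 ± 0.09, Parp1 by 3.43 ± 0.06, Brca1 by 3.36 ± 0.10 and the helicase Blm by 3.33 ± 0.10. Of 12 telomere genes 6 were higher, with the telomere-binding protein Terf1 at 3.49 ± 0.08 and dyskerin, Dkc1, at 2.71 ± 0.13; 10 were higher with centred arrays or quantile normalization. Tert, the catalytic subunit of telomerase, was not called, with 7.13, 7.18 and 7.29 in ES cells, against 6.76, 6.56 and 6.76 in fibroblasts.

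Genes of DNA methylation were mostly higher, and all 4 measured Dnmt genes were. The de novo enzyme Dnmt3b had 10.20, 9.66 and 10.38 in ES cells, against 6.08, 5.91 and 5.78 in fibroblasts. Its cofactor Dnmt3l differed by 4.79 ± 0.10, Dnmt3a by 2.42 ± 0.09 and the maintenance enzyme Dnmt1 by 1.79 ± 0.09. Of the Tet enzymes, Tet2 was higher (2.23 ± 0.15) along with Tet1, and Tet3 lower (-1.51 ± 0.13). Of 23 members 12 were higher and 5 lower, the others being Gadd45g (-2.17 ± 0.10), Zbtb38 (-2.04 ± 0.12), Apobec1 (-1.56 ± 0.13) and Mbd2 (-1.08 ± 0.09).

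Polycomb complexes silence developmental genes by methylating or ubiquitinating histones. All 3 core subunits of PRC2 were higher, Eed by 2.49 ± 0.07, Suz12 by 2.09 ± 0.09 and Ezh2 by 1.91 ± 0.07. Its accessory subunit Jarid2 had 11.89, 12.04 and 11.99 in ES cells, against 8.51, 8.47 and 8.47 in fibroblasts. Mtf2, another accessory subunit, differed by 3.14 ± 0.09. In PRC1, Phc1 had 11.41, 11.25 and 11.35 in ES cells, against 7.78, 7.97 and 7.80 in fibroblasts. Its paralogues Phc2 (-1.20 ± 0.12) and Phc3 (-2.21 ± 0.11) were lower. Cbx7, the chromobox protein of PRC1 in ES cells, was higher (2.88 ± 0.13), and Cbx8 (-0.96 ± 0.13) and Bmi1 (-0.93 ± 0.10) were not called. In all 14 of 27 were higher and 4 lower, 2 of them with centred arrays or quantile normalization.

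In the SWI/SNF (BAF) remodelling complex, Smarcc1 (1.16 ± 0.09) and Smarcd1 (1.66 ± 0.07), subunits of the form found in ES cells, were higher. Smarcc2 was lower, with 7.46, 7.76 and 7.75 in ES cells, against 9.69, 9.62 and 9.43 in fibroblasts, and so was the ATPase Smarca2 (BRM; -3.41 ± 0.12), which ES cells largely do without. Chd7, a remodeller that occupies ES cell enhancers, had 9.23, 9.42 and 9.51 in ES cells, against 4.88, 4.85 and 5.36 in fibroblasts. The list as a whole counted 15 of 36 higher, 3 lower and 18 not called. Of 53 histone methylation genes and variants 29 were higher and 2 lower, 1 with centred arrays. Suv39h2 (2.98 ± 0.07), which methylates histone H3 in heterochromatin, and Trim28 (2.50 ± 0.07), the corepressor of KRAB zinc-finger proteins, were among the higher. The variant Macroh2a2 had 6.96, 7.24 and 6.67 in ES cells, against 9.15, 9.12 and 9.15 in fibroblasts.

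Zinc-finger genes themselves showed some of the widest differences. Zfp980 had 10.88, 11.18 and 11.21 in ES cells, against 4.03, 3.58 and 3.09 in fibroblasts, 7.52 ± 0.20 higher in ES cells, and Zfp640 (7.49 ± 0.10) and Zfp600 (5.96 ± 0.18) were also among the 15 highest. In the RefSeq gene order Zfp980, Zfp600, Zfp991 (2.58 ± 0.08) and Zfp982 (3.39 ± 0.19) follow each other with no other tested gene between them, and all 4 were higher. The last pair was named after its values were seen. These neighbours belong to a family of close copies, and a probe set may read more than 1 of them, so their values are uncertain. Over all 203 genes with a Zfp symbol, 49 were higher and 33 lower, with a median of 0.08 against -0.35 over all genes.

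Germline genes were higher in 33 of 40 cases, lower in 2 and not called in 5, with a median of 2.05. Mael, which protects germ cells from transposons with the piRNA pathway, had 7.73, 7.97 and 7.71 in ES cells, against 3.87, 3.60 and 3.92 in fibroblasts. Tdrd12, of the same pathway, differed by 5.02 ± 0.14, the meiotic recombination factor Hsf2bp by 4.37 ± 0.11 and the synaptonemal complex gene Sycp3 by 3.99 ± 0.13. The fibroblast means of these 4 genes were 3.76 to 5.47, where the table's values run from 2.43 to 13.64. Without the dimmest 25% of genes 8 members were tested and 6 were higher. Tdrd7 (-2.09 ± 0.23) and Taf9b (-2.49 ± 0.08) were the 2 lower members. The E-box CACGTG was in the windows of 12 of 34 germline genes with a promoter (35.3%), against 11.6% of the 7533 genes. It was in 13.5% of genes called higher and 9.73% of those called lower. The E2F motif was also in 7 of these 34 germline genes (20.6%), against 5.83% of the 7533. Mael is shown as one that holds the E-box, 223 bases before the start. Its window is chr1:166238695-166238994 (GRCm38.p6, - strand, printed along that strand).
Mael: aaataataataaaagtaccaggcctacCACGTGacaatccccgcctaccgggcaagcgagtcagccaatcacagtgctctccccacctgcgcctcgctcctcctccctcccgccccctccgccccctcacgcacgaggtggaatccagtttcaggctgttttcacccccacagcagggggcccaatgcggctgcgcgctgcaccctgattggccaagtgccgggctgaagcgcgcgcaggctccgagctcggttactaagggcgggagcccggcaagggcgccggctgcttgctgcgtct

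Imprinted genes, expressed from 1 parental allele, were higher at 6 of 26 and lower at 8, shares near the 23.4% and 32.1% of all genes. Zdbf2 (4.45 ± 0.14) and Phlda2 (3.96 ± 0.10) were higher, and Sgce (-3.39 ± 0.10) and the noncoding Airn (-3.35 ± 0.12) lower. Igf2, a fetal growth factor, had 8.65, 9.44 and 8.34 in ES cells, against 10.06, 10.41 and 10.37 in fibroblasts. The second ES array lay closest to the fibroblasts there, as it did for the summed fibroblast markers. Sex-linked genes did not point one way. The Y-linked Eif2s3y had 9.62, 9.54 and 9.61 in ES cells, against 7.58, 7.80 and 8.03 in fibroblasts, and Xist, the X-inactivation RNA, had 6.27, 6.41 and 5.65 in ES cells, against 4.09, 3.95 and 4.19 in fibroblasts. Both were higher in ES cells, while the Y-linked Kdm5d was not called (-0.93 ± 0.11) and was called lower without the first ES array.

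Among metabolic genes, the hexokinase Hk2 was higher, with 11.10, 10.89 and 10.99 in ES cells, against 8.51, 8.50 and 8.44 in fibroblasts, and Hk1 was lower (-1.92 ± 0.08). Phosphofructokinase Pfkp was higher (2.31 ± 0.09), Slc2a1, the widespread transporter Glut1, was not called (0.11 ± 0.06), and Hif1a was lower (-1.94 ± 0.07). Of 22 glycolysis genes 6 were higher and 5 lower, against 23.4% and 32.1% of all genes. In one-carbon metabolism, 11 of 25 genes were higher and 4 lower. Gldc, the decarboxylase of the glycine cleavage system, had 10.25, 10.02 and 10.13 in ES cells, against 5.81, 5.82 and 5.66 in fibroblasts. Its partner Amt (3.80 ± 0.11) and Shmt1 (3.25 ± 0.09) were higher, the mitochondrial enzymes Aldh1l2 (-3.05 ± 0.10) and Mthfd2l (-2.58 ± 0.11) lower, and the serine synthesis gene Phgdh was not called (0.30 ± 0.10). Of 32 nucleotide synthesis genes 18 were higher, led by Ppat (3.34 ± 0.07), the first enzyme of purine synthesis, and 4 lower. Cholesterol genes were lower in 8 of 18 cases and higher in 2, though 5 were lower and 4 higher with centred arrays, and 1 was higher without the second ES array.

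Ribosome biogenesis genes were higher in 41 of 47 cases and lower in none, with a median of 1.93. Nop58, a core protein of box C/D particles, had 11.89, 11.89 and 11.78 in ES cells, against 9.15, 8.80 and 9.01 in fibroblasts, and Taf1d, of the RNA polymerase I machinery, differed by 3.09 ± 0.11. Lysosomal and autophagy genes were lower in 39 of 55 cases. The cysteine protease Ctsh had 5.67, 5.78 and 5.51 in ES cells, against 9.47, 9.66 and 9.86 in fibroblasts. The tetraspanin Cd63 (-3.62 ± 0.16), acid sphingomyelinase Smpd1 (-3.56 ± 0.09) and the autophagy protein Gabarapl1 (-3.43 ± 0.10) were lower, and Tfeb, the factor that drives lysosomal genes, was 1 of the 2 higher (1.33 ± 0.07), and 5 were higher with centred arrays. Of 48 secretory and folding genes 24 were lower and 5 higher. The lower ones included Copz2 (-3.93 ± 0.13), Fkbp7 (-3.75 ± 0.13) and the collagen-secretion factor Creb3l1 (-3.21 ± 0.11), and the cytosolic and mitochondrial chaperones Hsp90aa1 (2.92 ± 0.30) and Hspd1 (1.58 ± 0.11) were higher. Of 27 mitochondrial genes 9 were higher and 4 lower, against 23.4% and 32.1% of all genes. Tfam, which maintains mitochondrial DNA, was higher at 2.20 ± 0.09.

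RNA-binding proteins included partners that control let-7 and splicing. Lin28a had 9.78 ± 0.11 in ES cells and 6.23 ± 0.20 in fibroblasts (SD, n = 3 each). It blocks let-7 processing, and Trim71, a let-7 target, differed by 4.77 ± 0.23 and Igf2bp1 by 4.43 ± 0.10. All 3 Mbnl genes, which push splicing toward differentiated patterns, were lower, Mbnl2 at -2.65 ± 0.06, Mbnl1 at -2.24 ± 0.09 and Mbnl3 at -1.74 ± 0.10. Mbnl2 had 9.23, 9.31 and 9.27 in ES cells, against 11.97, 11.86 and 11.93 in fibroblasts. The miRNA-processing genes Drosha (2.08 ± 0.11) and Dgcr8 (1.41 ± 0.08) were higher, and Dicer1 was not called (0.88 ± 0.07). Over the list 20 of 45 were higher and 5 lower.

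The array also carried probe sets named for miRNA hairpins, a family chosen after its values were seen. These read the precursor or the transcript around it and do not measure the mature miRNA. Of 106 such genes 24 were higher, 18 lower and 64 not called, with a median of 0.48; of all genes 23.4% were higher and 32.1% lower. The Mir17 cluster (chr14:115043671-115044391, GRCm38.p6, + strand), whose miRNAs promote the cell cycle, was higher at all 5 hairpins measured and in its host transcript Mir17hg. Mir18 had 8.40, 8.83 and 8.28 in ES cells, against 5.39, 4.59 and 4.47 in fibroblasts. Mir20a differed by 3.43 ± 0.14, Mir19a by 3.39 ± 0.14, Mir19b-1 by 3.21 ± 0.17, Mir17 by 2.90 ± 0.11 and Mir17hg by 2.87 ± 0.18. The hairpins share 1 transcript and are not independent. The related cluster on the X chromosome was higher at Mir363 (3.66 ± 0.16) and Mir106a (1.93 ± 0.12), with Mir19b-2 (0.83 ± 0.09) and Mir92-2 (0.72 ± 0.08) not called. The third, within the helicase gene Mcm7, was higher at Mir106b (1.53 ± 0.11) and Mir93 (1.12 ± 0.09), with Mir25 at 0.89 ± 0.11. Mcm7 itself differed by 2.40 ± 0.09. Mir15b (2.72 ± 0.14) and Mir16-2 (1.94 ± 0.13) lie within Smc4, a condensin gene that was higher too (2.21 ± 0.09).

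The mature sequences (RefSeq, GRCm38.p6) show what these clusters share. Bases 2 to 8, the seed that pairs with targets, are in capitals. One seed recurs in all 3 clusters.
miR-17-5p: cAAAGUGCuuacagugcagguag
miR-20a-5p: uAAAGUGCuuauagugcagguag
miR-106a-5p: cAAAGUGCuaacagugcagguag
miR-106b-5p: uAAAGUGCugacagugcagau
miR-93-5p: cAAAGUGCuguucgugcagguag
The miR-18 and miR-19 seeds are others, with miR-363 and miR-25 sharing theirs across clusters.
miR-18a-5p: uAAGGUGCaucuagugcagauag
miR-19a-3p: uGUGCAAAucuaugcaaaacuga
miR-19b-3p: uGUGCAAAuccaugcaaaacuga
miR-363-3p: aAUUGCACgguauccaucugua
miR-25-3p: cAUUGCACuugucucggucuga
miR-15b-5p: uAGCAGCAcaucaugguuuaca
miR-16-5p: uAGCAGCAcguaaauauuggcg
Mir15b and Mir16-2 hairpins likewise give mature miRNAs with 1 common seed.

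The 20 measured hairpins of the chromosome 12 cluster between Mir379 and Mir369 (chr12:109709060-109743496, + strand) were lower at 7, higher at 3 and not called at 10. Of all genes 32.1% were lower, a share near that of the cluster, and 23.4% higher. Hairpins so close together may not be independent. Among the lower hairpins elsewhere, Mir145a, which represses pluripotency factors and marks smooth muscle, had 5.41, 5.13 and 4.74 in ES cells, against 8.61, 8.60 and 8.94 in fibroblasts, and its neighbour Mir143 differed by -1.32 ± 0.13. Mir181b-1 had 3.92, 3.96 and 3.79 in ES cells, against 7.57, 7.52 and 7.50 in fibroblasts. Mir218-1 (-2.95 ± 0.16) and Mir218-2 (-1.64 ± 0.19) lie within Slit2 and Slit3, guidance genes that were lower as well (Slit2 -4.39 ± 0.17, Slit3 -4.25 ± 0.08). Mir199a-1 differed by -1.86 ± 0.10. Mir483 (1.06 ± 0.10, not called without the first ES or the first fibroblast array) was higher and lies within Igf2, which was lower (-1.47 ± 0.21). The let-7 hairpins did not move together, with Mirlet7f-1 (2.28 ± 0.16) and Mirlet7g (1.30 ± 0.12) higher, Mirlet7a-2 lower (-1.02 ± 0.14, not called without the first ES array or the second or the third fibroblast array) along with its host Mir100hg (-3.99 ± 0.15), and Mirlet7d (-0.35 ± 0.12), Mirlet7e (-0.45 ± 0.08) and Mirlet7f-2 (0.25 ± 0.09) not called. The 5p mature forms of let-7g and let-7f, those that RefSeq gave, share a seed.
let-7f-5p: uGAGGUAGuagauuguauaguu
let-7g-5p: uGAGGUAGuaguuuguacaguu
For the lower Mirlet7a-2 RefSeq gave the 3p form alone, so its 5p seed is not compared. The lower hairpins Mir181b-1, Mir218-1 and Mir199a-1, outside the let-7 family, give other seeds.
miR-181b-5p: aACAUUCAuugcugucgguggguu
miR-218-5p: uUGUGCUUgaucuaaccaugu
miR-199a-5p: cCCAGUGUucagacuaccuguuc

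**Figure D4:**
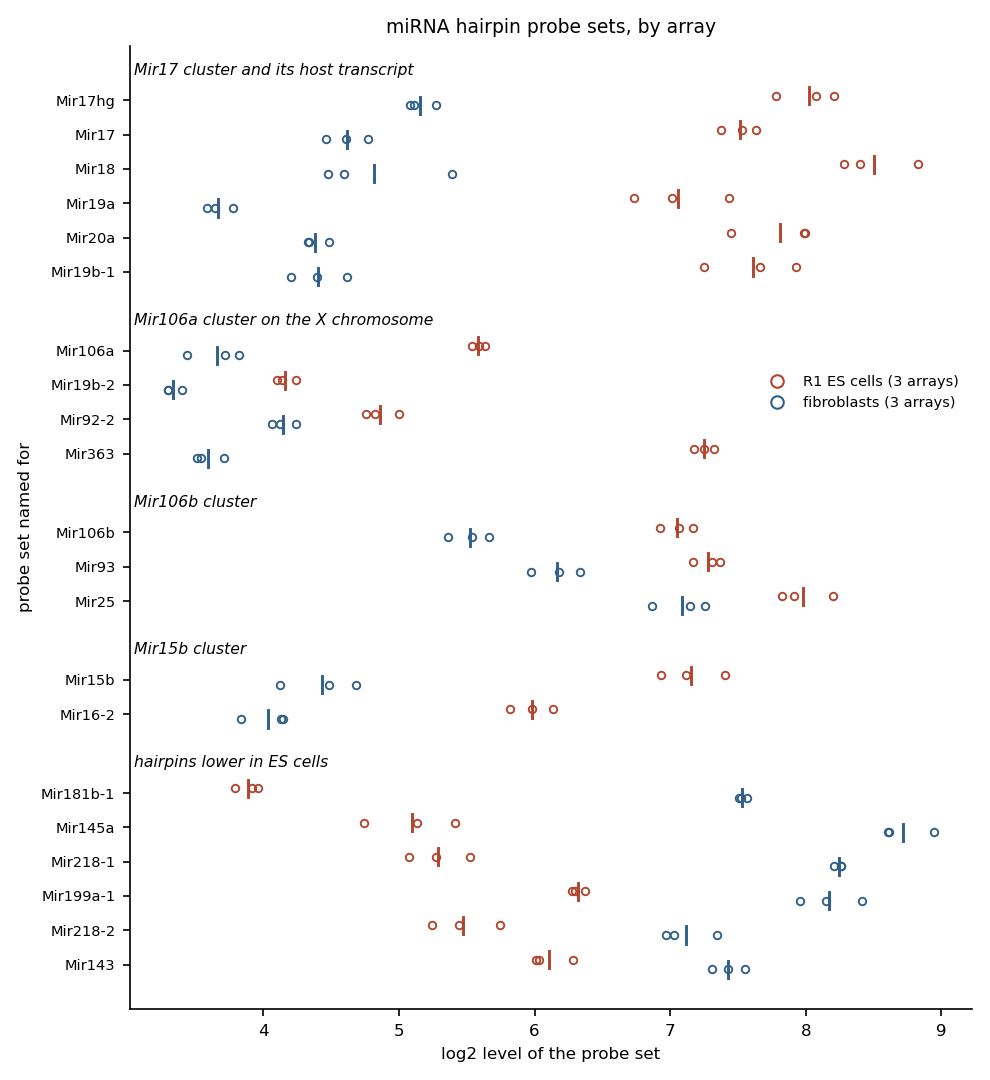
Log2 levels (horizontal axis) of probe sets named for miRNA hairpins and for the transcript Mir17hg, in the 3 ES arrays (red circles) and 3 fibroblast arrays (blue circles), with the group mean as a bar. All 5 hairpins of the Mir17 cluster lie at least 2.90 higher in ES cells, and the 6 at the bottom lie lower.

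Markers of other embryonic lineages were counted next, though many were not analysed here. Of the listed genes, 12 of 34 primed, mesoderm and ectoderm, 9 of 21 trophoblast and 15 of 25 primitive endoderm genes were measured. Sox7, Sox17, Foxa2, Cdx2, Elf5 and the mesoderm markers T, Mixl1 and Mesp1 were not. Over all genes 23.4% were higher and 32.1% lower. Of 12 measured genes of the primed state and of mesoderm and ectoderm 6 were higher, led by Zic5 (4.47 ± 0.12), Zic2 (3.37 ± 0.13) and Otx2, a factor of the transition out of the naive state with 9.45, 8.62 and 9.28 in ES cells, against 5.21, 5.26 and 5.12 in fibroblasts. Zic1 (-1.06 ± 0.12) and Ncam1 (-2.43 ± 0.08) were lower; 1 gene was lower without the second ES or the third fibroblast array. Of 9 trophoblast genes 4 were higher, with Tfap2c at 2.75 ± 0.15 and Eomes at 1.93 ± 0.10, and 1 lower, or 2 lower without the second ES array. Of 15 primitive endoderm genes 3 were higher and 4 lower, near the shares of all genes. Gata4 (0.89 ± 0.11) and Gata6 (-0.85 ± 0.11), which define that lineage, were not called, and Pdgfra, a marker of both primitive endoderm and fibroblasts, differed by -3.62 ± 0.12. With centred arrays 7 of the endoderm genes were higher.

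**Figure D5:**
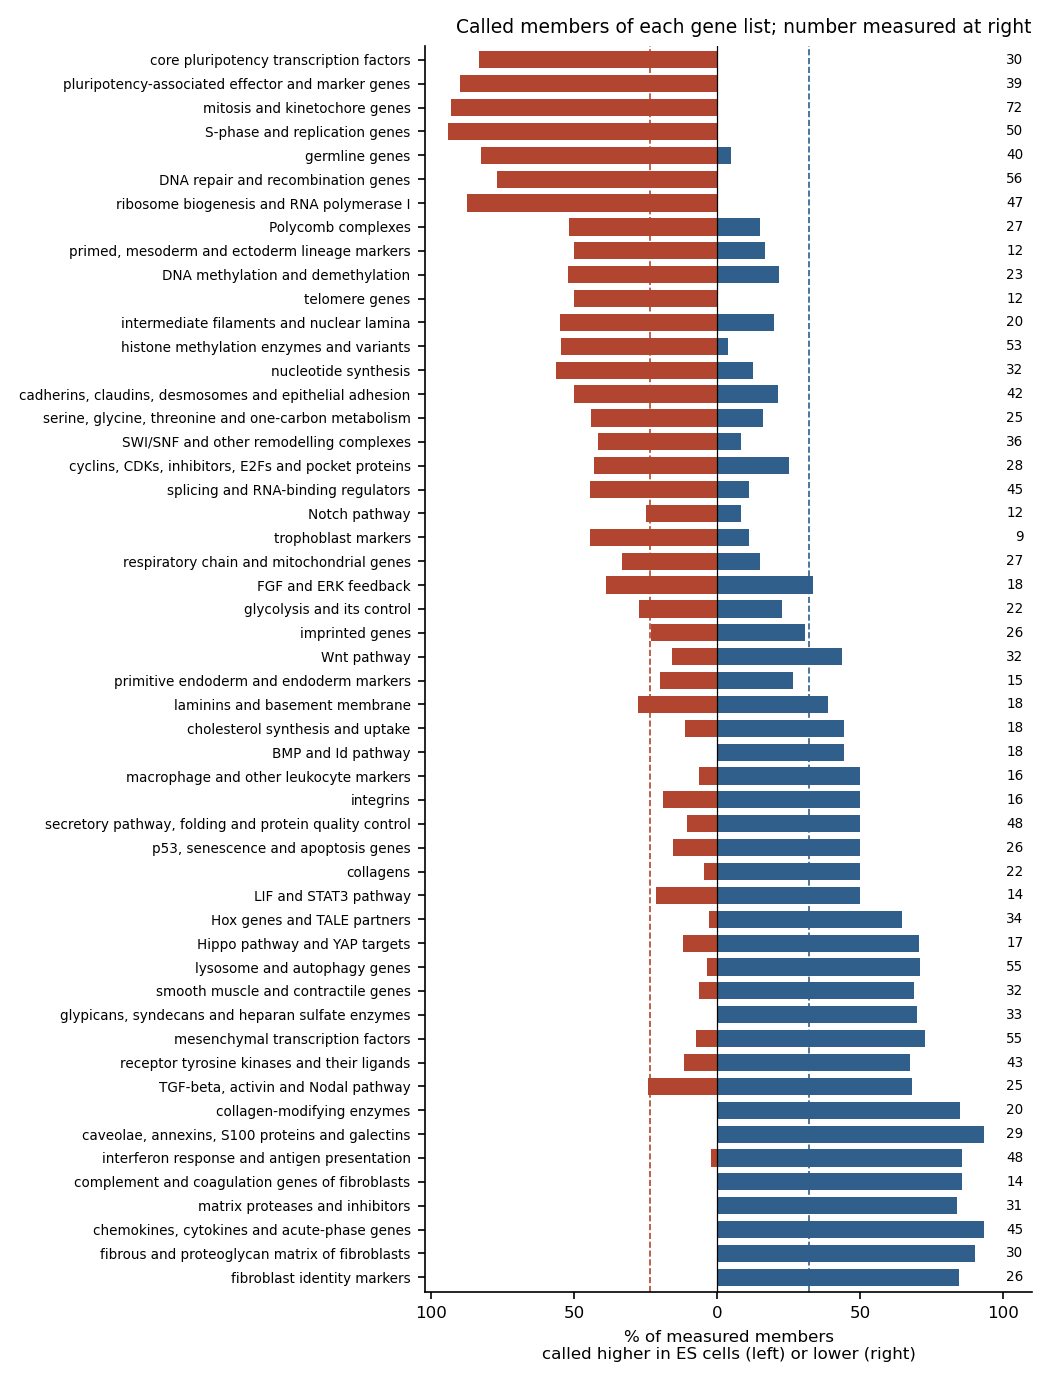
Share of each list's measured members called higher in ES cells (red, to the left) and lower (blue, to the right), with the number measured at the right; lists with at least 5 measured members are shown by falling median difference. Dashed lines are the shares over all genes, 23.4% higher and 32.1% lower; the S-phase list fills the left with 47 of 50, and the chemokine list the right with 42 of 45.

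The iPS cells, which grew on feeders too, with 15% serum and 1000 U/ml of LIF, are a second pluripotent line. The labels give the 0.5 h plating that lets feeders settle for the ES cells alone. Strain, line, passage and this step differed together between ES and iPS cells and cannot be told apart. ES and iPS arrays correlated at r = 0.941 to 0.949, and 234 genes (2.45%) were called higher and 424 (4.44%) lower in ES cells than in iPS cells. With centred arrays these counts were 312 and 330, and with quantile normalization 292 and 396. This comparison shares the ES arrays with the one above. Of 72 mitotic genes 1 was called between ES and iPS cells. By contrast, 12 of 30 matrix genes, 10 of 22 collagens, 12 of 32 contractile genes and 13 of 29 genes for caveolae, annexins, S100 proteins and galectins were lower in ES cells than in iPS cells. Col1a1, the main chain of type I collagen, had 9.45, 10.26 and 9.69 in ES cells, 12.22, 12.18 and 12.27 in iPS cells and 11.86, 12.02 and 11.99 in fibroblasts. The iPS levels lay above the fibroblast range, and the ES levels below it. Dcn, a proteoglycan of the same matrix, had 9.42, 9.48 and 9.26 in ES cells, 7.32, 7.12 and 7.48 in iPS cells and 12.69, 12.97 and 13.11 in fibroblasts. There ES cells were above iPS cells, so the fibroblast markers did not order the lines in 1 way. Over the 26 fibroblast identity genes the summed level was 8476 to 10702 on ES arrays, 20963 to 21943 on iPS arrays and 61676 to 66761 on fibroblast arrays, and the part of feeders was not tested. Of the 30 pluripotency factors 8 were higher and 1 lower in ES cells than in iPS cells, with Zfp42 at 2.77 ± 0.16 and Otx2 at 2.79 ± 0.17 on the ES minus iPS scale.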

How the data were processed

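RNA from R1 ES cells, fibroblasts, Oct4 Tet1 iPS cells and Oct4 Tet1 cells after 1 day of doxycycline was measured on 3 whole-transcript arrays a group. The values are the log2 values that the authors deposited in the series' value table. The sources used here do not give their summarisation, normalization or filter, and signal over background is unknown. The table has 10360 probe sets: 9542 with 1 gene symbol were used, 344 with several and 474 with none were not. Where 3 genes had more than 1 probe set, the brightest stood for the gene. Every probe set varied by at least 0.51 over the 12 arrays, so the shares called are of a table that lacks flat genes.

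Group means were fitted to all 12 arrays with limma 3.58.1 (R 4.3.3) with Benjamini-Hochberg adjustment over 9539 genes, and the steps were tested on simulated data. The number of arrays limits the precision; the median SE of a difference was 0.094. Genes were named by rule: the 15 highest and 15 lowest differences, up to 6 called and 4 uncalled members of each list with every called member that went against its list, and all pluripotency, fibroblast and leukocyte markers. The text prints only part of the genes that this rule yields. Other genes printed, the miRNA hairpins, and the motifs were chosen after values were seen. The lists too were chosen with earlier results of these data known, and no p-value is given for a list. Overlapping lists share genes. Probe sets of near-identical genes can read each other's transcripts. Promoters, miRNAs and hairpin positions are RefSeq's on GRCm38.p6: of 9539 genes 7533 had a promoter window and of 106 miRNA genes 93 a hairpin. Alternatives changed the normalization, centring, dim genes, probe set rule, arrays fitted, prior, weights, replicate block, fold minimum and single arrays.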

Additional observations from a re-analysis of the deposited data

How the results depend on the processing

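Between ES cells and fibroblasts, dropping the fold minimum called 9050 genes, 4121 higher and 4929 lower. The other alternatives kept the counts within 1.5 times of 5299, 2234 and 3065: without the dimmest 25% of genes 1780 were higher and 2503 lower, limma's treat against a difference of 1 gave 1802 and 2534, and leaving out 1 array gave 5245 to 5309 calls, 2216 to 2248 higher and 3026 to 3082 lower. No gene was called in the opposite direction under any of them. Between ES and iPS cells 658 genes were called, against 5502 without the fold minimum (2644 higher, 2858 lower) and 226 with treat (72 higher, 154 lower). There 143 were higher without the dimmest genes, and leaving out 1 array gave 636 to 722 calls, 223 to 254 higher and 384 to 487 lower.

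No called gene named here changed sign. Uncalled genes near 0 did: with centred arrays Actn4 was at 0.0052, Id1 at 0.25, Mirlet7d at 0.00, Myc at 0.10, Relb at 0.23 and Zfp281 at 0.34. With quantile normalization Id1 was at 0.14, Relb at 0.24 and Zfp281 at 0.20. Leaving out single arrays put Srf between -0.0088 and 0.17, Id1 between -0.17 and 0.024, Pcolce2 between -0.0095 and 0.36 and Zfp281 between -0.051 and 0.071. Calls lost with centred arrays were those of Cdkn1b, Cldn1, Csf1r, Emd, Fn1, Gja1, Mbd2, Mir143, Mirlet7a-2, Phc2, Tyrobp and Zic1. With centred arrays 13 uncalled genes named here became called, all higher in ES cells. They were Tbx3, Rarg, Sp5, Dicer1, Foxm1, Gata4, Lamc1, Icam1, Manba, Gpc3, Mir25, Mir19b-2 and Mir92-2. With quantile normalization 8 named genes gained a call and 6 lost it. Calls lost without 1 array, besides those given above, were Emd (the first ES array), Tyrobp (the third ES or the second fibroblast array) and Zic1 (the second ES or the third fibroblast array). Of 108 list counts 48 moved by over 1.5 times without the fold minimum, 17 with centred arrays, 9 with treat, 9 without the dimmest genes, 8 with quantile normalization and at most 5 without 1 array. Among those not given above, treat gave Notch 1 higher, mesenchymal factors 2 higher, Hox and TALE genes 0 higher, primed-state genes 1 lower, Polycomb 2 lower, SWI/SNF 9 higher, nucleotide synthesis 2 lower, cholesterol genes 0 higher and lysosome genes 1 higher. Centred arrays and quantile normalization gave BMP genes 1 higher and leukocyte genes 2 higher. Primitive endoderm genes were 5 higher with quantile normalization. Centred arrays gave endothelial genes 2 higher and primed-state genes 1 lower. Without the dimmest genes 1 of 4 trophoblast, 1 of 10 primitive endoderm and 1 of 1 sex-linked genes tested were higher. There 1 of 8 primed-state genes was lower.

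Samples with the same number did not deviate together: the correlations of their deviations were 0.003, -0.081 and -0.024 between ES cells and fibroblasts, so the numbers were not taken as pairs. With the replicate number as a block the counts were 2234 higher and 3065 lower, and 234 and 424 against iPS cells. With 3 arrays a group of unstated origin and no background signal, dim levels and small differences are the least certain values.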
